A study of Mus musculus with 22 samples.

Results

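CD1d and MHC class I presentation was described here through 10 genes: Cd1d1, which encodes the lipid-presenting CD1d molecule, its near-identical neighbour Cd1d2, annotated as a polymorphic pseudogene, and 8 genes of classical and related class I presentation, namely the heavy chains H2-K1, H2-D1 and H2-T23, the light chain B2m, the peptide transporter subunits Tap1 and Tap2, the loading factor Tapbp and the transcriptional activator Nlrc5. They were taken by gene symbol from the 53379 genes of a raw count table, and all 10 were among the 40714 genes that passed the filter on low counts. The members were selected on the measured kainate against sham difference of Cd1d1 in neurons, so the Cd1d1 and Cd1d2 values in neurons are a description with no test, and the question put to the data was whether the class I genes moved with them.

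The libraries came from the left hippocampus of male C57/BL6N mice, contralateral to the injected side (CLH), 24 h after kainate (70 nl, 20 mM) or saline (sham; 0.9% NaCl) had been placed above the right hippocampus. Kainate mice entered the study only if they had shown convulsive seizures. All mice were bought at 8 weeks of age and kept for 4 weeks before surgery. Hippocampi of 8 mice per treatment were pooled, and nuclei were separated by staining for NeuN, a nuclear protein of neurons: stained nuclei are called neurons here and unstained ones glia, a label that takes in every NeuN- cell type, vessel and immune cells included. This gave 3 kainate neuron, 3 sham neuron, 3 kainate glia and 2 sham glia libraries (replicates 1 and 3), each from a pool of 4 or of 2 mice (the sources used here do not say which library came from which), with 12058875 to 45428465 counts per library. The deposited protocol names the right hippocampus, whereas the sample titles and the study's methods name the left one, which is followed here.

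CD1d is built like a class I heavy chain, pairs with the same light chain, beta-2-microglobulin, and shows lipids to natural killer T cells, whereas the classical class I molecules show peptides to CD8+ T cells. The peptides are made by the proteasome, pumped into the endoplasmic reticulum by TAP and loaded with the help of tapasin; CD1d takes its lipids in endosomes with the help of saposins and does not need TAP. Interferons, NF-kappa B and the activator NLRC5 act on the promoters of class I genes, and microglia, endothelial cells and neurons are all known to carry class I molecules in the brain under some conditions.

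Cd1d1 lies on chromosome 3 (GRCm38, 86995834 to 86999441, minus strand), beside Cd1d2 (86986551 to 86989780, plus strand), which the annotation calls a polymorphic pseudogene. The pair was printed here because their near identity limits how well reads can be assigned to either gene. Over 6 coding exons, 1011 aligned positions held 36 differences, an identity of 96.44%. Coding exon 3 (Cd1d1 86998072 to 86998350, Cd1d2 86987543 to 86987821) was the most divergent of coding exons 2 to 4, with 17 differences in 279 bases, and coding exon 4 (Cd1d1 86997338 to 86997616, Cd1d2 86988278 to 86988555) was the least divergent of them, with 3 differences and a stretch of 202 identical bases. Capitals mark the bases that differ between the genes, including 1 base of Cd1d1 exon 4 that has no partner in the 278 bases of Cd1d2.
Cd1d1 coding exon 3: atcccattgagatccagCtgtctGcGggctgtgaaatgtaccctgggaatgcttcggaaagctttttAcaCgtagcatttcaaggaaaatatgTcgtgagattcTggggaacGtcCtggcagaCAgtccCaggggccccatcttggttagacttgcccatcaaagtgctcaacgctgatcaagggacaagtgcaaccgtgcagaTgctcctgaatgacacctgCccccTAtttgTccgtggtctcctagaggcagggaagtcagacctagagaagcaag
Cd1d2 coding exon 3: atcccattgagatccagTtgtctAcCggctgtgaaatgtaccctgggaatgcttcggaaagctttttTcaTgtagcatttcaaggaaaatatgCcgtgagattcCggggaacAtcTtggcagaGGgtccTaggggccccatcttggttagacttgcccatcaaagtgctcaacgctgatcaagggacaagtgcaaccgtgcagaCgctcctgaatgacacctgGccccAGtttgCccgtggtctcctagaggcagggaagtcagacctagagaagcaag
Cd1d1 coding exon 4: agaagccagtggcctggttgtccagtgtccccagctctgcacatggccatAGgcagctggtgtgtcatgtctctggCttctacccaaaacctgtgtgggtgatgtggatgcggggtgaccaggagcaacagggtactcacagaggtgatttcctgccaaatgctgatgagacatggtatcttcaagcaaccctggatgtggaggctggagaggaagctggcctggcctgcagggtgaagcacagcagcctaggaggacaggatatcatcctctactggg
Cd1d2 coding exon 4: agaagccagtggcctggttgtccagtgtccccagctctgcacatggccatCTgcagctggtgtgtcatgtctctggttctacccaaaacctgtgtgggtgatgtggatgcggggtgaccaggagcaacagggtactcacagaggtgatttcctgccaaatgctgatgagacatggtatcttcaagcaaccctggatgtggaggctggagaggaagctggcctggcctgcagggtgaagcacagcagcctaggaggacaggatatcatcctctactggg
Of all windows of 75 bases, the shorter of the read lengths used in the study, 14.2% of those in Cd1d1 transcripts also occurred in Cd1d2 and 22.8% of those in Cd1d2 occurred in Cd1d1. At 150 bases the shares were 4.64% and 7.10%. A read from such a window maps to more than 1 place, and only uniquely mapped reads were counted, so both genes were measured on their remaining sequence.

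Promoters are shown for the 3 heavy chains and the light chain, to let the letters that class I promoters have in common be set beside the values below. RefSeq promoter sequences (GRCm38.p6) matched 6 of the 10 members (B2m, H2-K1, H2-D1, H2-T23, Tap1 and Tapbp). The 250 bases before the start were searched on both strands for the interferon regulatory factor core AANNGAAA, the kappa B element GGGATNCCC, the cyclic AMP response core TGACG and the CCAAT box CCAAT, and matches are in capitals; the motifs could overlap each other, but no matches did in the 4 sequences shown. The windows were chr17:34000348-34000597 (minus strand) for H2-K1, chr17:35262844-35263093 (plus strand) for H2-D1, chr2:122147437-122147686 (plus strand) for B2m and chr17:36032702-36032951 (minus strand) for H2-T23.
H2-K1: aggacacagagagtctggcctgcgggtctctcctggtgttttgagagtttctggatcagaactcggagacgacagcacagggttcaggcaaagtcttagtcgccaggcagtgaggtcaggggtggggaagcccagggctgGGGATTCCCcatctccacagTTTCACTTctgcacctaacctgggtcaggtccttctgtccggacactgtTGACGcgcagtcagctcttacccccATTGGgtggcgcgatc
H2-D1: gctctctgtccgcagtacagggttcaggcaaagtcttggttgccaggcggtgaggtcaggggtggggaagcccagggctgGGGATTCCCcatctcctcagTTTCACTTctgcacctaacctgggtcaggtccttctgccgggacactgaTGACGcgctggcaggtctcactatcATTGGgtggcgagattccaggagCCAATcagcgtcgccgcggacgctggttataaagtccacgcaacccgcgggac
B2m: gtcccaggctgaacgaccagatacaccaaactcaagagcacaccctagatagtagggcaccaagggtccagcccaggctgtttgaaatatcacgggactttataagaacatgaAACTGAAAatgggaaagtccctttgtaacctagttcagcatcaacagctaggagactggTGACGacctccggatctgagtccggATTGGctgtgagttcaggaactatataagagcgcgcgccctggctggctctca
H2-T23: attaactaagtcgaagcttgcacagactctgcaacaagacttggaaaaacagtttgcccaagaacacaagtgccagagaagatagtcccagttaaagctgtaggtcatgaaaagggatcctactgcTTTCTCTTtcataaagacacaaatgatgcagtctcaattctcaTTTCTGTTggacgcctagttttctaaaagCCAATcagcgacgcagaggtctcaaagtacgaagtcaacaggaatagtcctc
The kappa B letters were found in H2-K1 and H2-D1, and in 0.889% of all 32851 promoters. The interferon regulatory factor core was in 4 of the 6 members (B2m, H2-K1, H2-D1 and H2-T23) and in 21.3% of all promoters. The cyclic AMP response core was in 4 of the 6 (B2m, H2-K1, H2-D1 and Tap1) against 17.8%, and the CCAAT box was in all 6 against 33.8%. A match says only that the letters are there.

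Before the members are described, the libraries need 1 remark on quality. Rbfox3, which encodes NeuN, was at 171 to 278 CPM (counts scaled to a common library size) in neurons and at 23.8 to 49.2 CPM in glia, and the microglial receptor Cx3cr1 was at 4.27 to 6.80 CPM in neurons and at 106 to 564 CPM in glia, so both sorted fractions carried their labelled markers with some of the other. RNA input was low (about 0.05 ng, with 15 PCR cycles) for the replicate 2 library of kainate glia and the replicate 1 library of sham glia, and 1 ng with 10 cycles for the others. The glia libraries of replicate 1 stood apart in both treatments: the summed level of 6 oligodendrocyte markers was 27163 CPM in kainate glia replicate 1 with a lowest library of 4852 CPM in that group, and 38943 CPM in sham glia replicate 1 against 8752 CPM in replicate 3.

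In neurons, Cd1d1 showed the widest gap between kainate and sham among the members. It was at 51.4, 83.7 and 81.0 CPM in kainate neurons (replicates 1, 2 and 3) and at 4.70, 3.47 and 4.45 CPM in sham neurons. The groups were far apart, with 72.0 ± 17.9 CPM (SD, n = 3) against 4.21 ± 0.647 CPM (n = 3), a ratio of means of 17.1 and a fitted log2 fold change of 4.10 (SE 0.37).
In glia, Cd1d1 was at 9.60, 12.1 and 13.0 CPM after kainate and at 12.7 and 8.48 CPM (replicates 1 and 3) after sham. These groups overlapped, and the log2 fold change was 0.13 (SE 0.37; FDR 1.00 in edgeR's quasi-likelihood test). Sham neurons thus held less Cd1d1 than any glia library, and kainate neurons held more than any glia library.
The fitted difference between the kainate effects of neurons and glia was 3.97 on the log2 scale (SE 0.50), given as a description. Summing the counts of Cd1d1 and Cd1d2 gave a log2 fold change of 4.02 in neurons. In bulk nuclei, a change in the number of nuclei of a type and a change in RNA per nucleus cannot be told apart. 

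Cd1d2 followed at a lower level. It was at 7.40, 4.33 and 5.63 CPM in kainate neurons and at 0.806, 0.459 and 0.484 CPM in sham neurons, again with no overlap (log2 fold change 3.32, SE 0.68). In glia it was at 1.19, 0.611 and 1.85 CPM after kainate and at 1.79 and 0.446 CPM after sham, which overlapped (log2 fold change 0.14, SE 0.71; FDR 1.00). The Cd1d2 values in sham neurons rest on 12, 16 and 15 counts.
Of the counts of both genes, Cd1d2 took 12.6% (95% Wilson interval 10.5 to 15.0%), 4.92% (4.25 to 5.69%) and 6.50% (5.48 to 7.69%) in the 3 kainate neuron libraries, and 14.6% (8.57 to 23.9%), 11.7% (7.32 to 18.1%) and 9.80% (6.03 to 15.5%) in the 3 sham neuron libraries. The intervals cover counting error only. The share in kainate neurons replicate 1 lay above those of replicates 2 and 3 by more than counting error, while the 3 sham intervals overlapped. In glia the share ran from 4.79% to 12.5%.

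**Figure D1:**
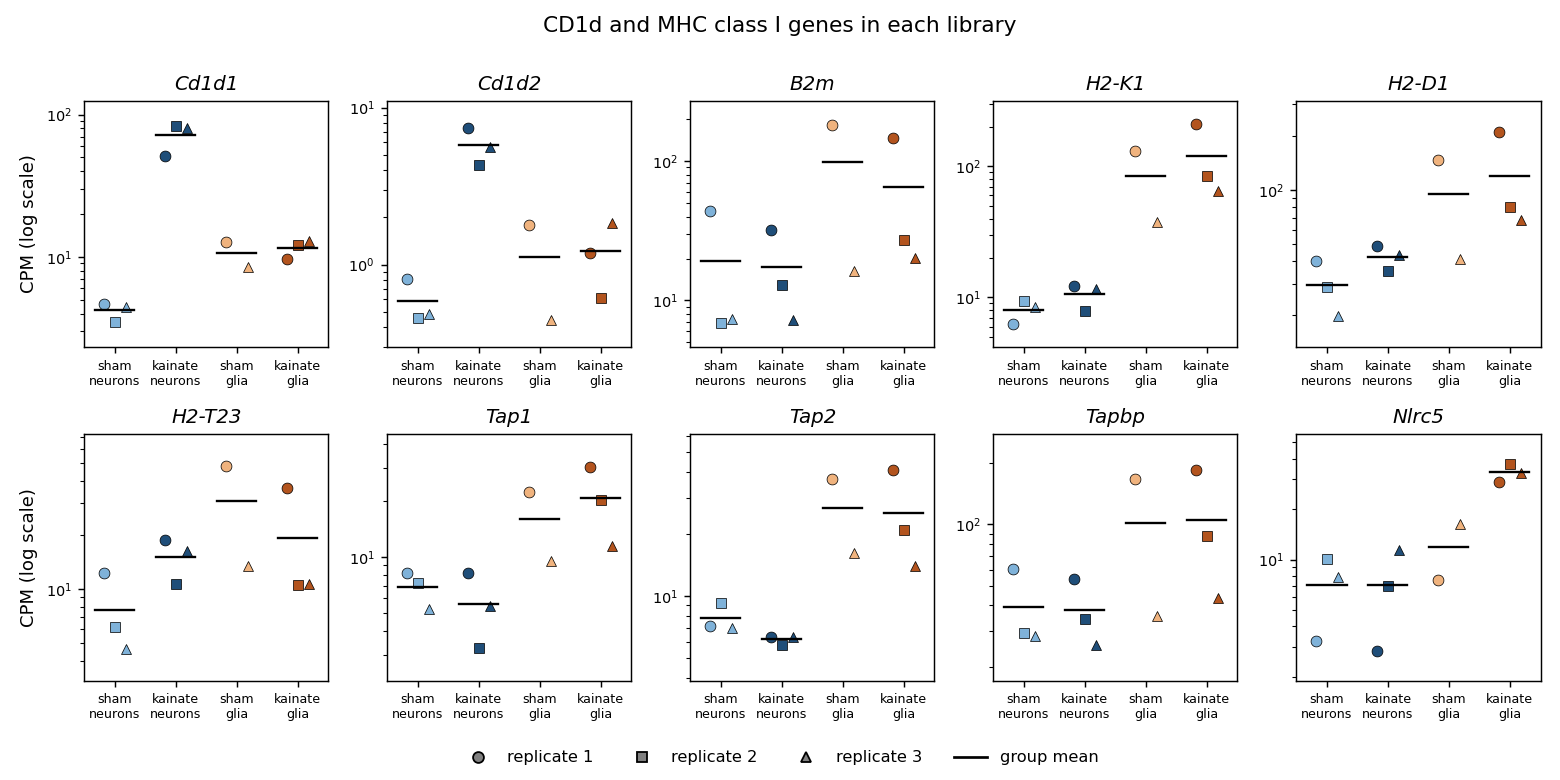
Level of each of the 10 genes in each of the 11 libraries, in CPM on log axes, by group (sham and kainate, neurons and glia); marker shapes give the replicate number and bars the group mean. Cd1d1 and Cd1d2 stand higher in all 3 kainate neuron libraries than in any sham neuron library, the class I genes mostly overlap between kainate and sham, and replicate 1 (circles) is high for most class I genes in glia.

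The class I genes did not follow Cd1d1 in neurons as a group. In edgeR's quasi-likelihood test at FDR below 0.25, 0 of the 8 were called, against 0.165% of all 40714 genes; 0 of 8 had an unadjusted p under 0.05 (2.09% of all genes did), and DESeq2's Wald test also called 0. Of the 8, 3 were higher and 5 lower after kainate, with log2 fold changes from -0.34 to 0.99, a median of -0.027 against -0.015 over all genes tested, and SEs of 0.43 to 0.96. With SEs of this size, changes well under those of Cd1d1 could pass unseen. The kainate and sham libraries did not overlap for 1 of the 8, Tap2, against 7.86% of all genes.

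Kainate and sham libraries of the same replicate number deviated together, so a fit with the number as a block was set beside it. Neither the labels nor the study's methods say what a shared number means across treatments, and in glia there are only 2 such pairs, so the calls made only with the block depend on a pairing read from the data. The block leaves 3 residual degrees of freedom, against 7 without it. Its SEs and FDRs thus draw largely on spread shared across genes, and a small FDR does not stand for many replicates. With the block, H2-T23 and H2-D1 were upregulated in kainate neurons, 2 of 8 with 3.19% of all genes called higher, and the other 6 were not called.

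H2-T23 encodes Qa-1b, a class Ib heavy chain that shows leader peptides of other class I molecules to the inhibitory receptor CD94/NKG2A. It was at 18.6, 10.6 and 16.3 CPM in kainate neurons and at 12.2, 6.14 and 4.64 CPM in sham neurons. The groups overlapped, but the kainate library was the higher in each of the 3 pairs, by 1.53, 1.73 and 3.50 times. The log2 fold change was 0.99 (SE 0.59; FDR 1) without the block and 1.06 (SE 0.25; FDR 0.00499) with it.
H2-D1, a classical heavy chain, was at 48.8, 35.3 and 43.3 CPM in kainate neurons and at 40.3, 28.7 and 19.8 CPM in sham neurons. It too was higher in each pair, by 1.21, 1.23 and 2.19 times (log2 fold change 0.52, SE 0.52, FDR 1 without the block; 0.57, SE 0.19, FDR 0.134 with it).
H2-K1, the other classical heavy chain measured, was at 12.2, 7.87 and 11.5 CPM in kainate neurons and at 6.24, 9.48 and 8.45 CPM in sham neurons. The groups overlapped and the kainate library was the higher in 2 of 3 pairs (log2 fold change 0.38, SE 0.51, FDR 1; with the block 0.36, SE 0.21, FDR 0.734).
Summed microglial markers (10 genes) were at 48.4 to 70.3 CPM in kainate neurons and at 36.2 to 42.9 CPM in sham neurons, and summed astrocyte markers (7 genes) at 282 to 434 CPM and 201 to 274 CPM, so both sums stood higher in kainate neurons, with no marker at 0 in all libraries of a group. The gap between the microglial sums rests on Csf1r, the marker with the highest level (16.6 to 30.2 CPM against 7.99 to 12.1 CPM), since the sums of the other 9 markers overlapped (29.2 to 40.1 CPM against 24.0 to 34.9 CPM). Not every marker followed its sum, and without the block no marker of either list was called. With the block 3 of 10 microglial markers were higher (C1qb, C1qc and Csf1r) and 1 was lower (P2ry12). Of the 7 astrocyte markers, 4 were higher (Slc1a2, Aldh1l1, Gfap and Aqp4) and 2 lower (Gja1 and Slc1a3). Over all genes, 3.19% were called higher and 1.9% lower in this fit. Of 9 neuron markers, the block called 2 higher (Gad1 and Gad2) and 1 lower (Camk2a) in kainate neurons, with a median log2 fold change of 0.11. It called 1 of 6 oligodendrocyte markers (Mog) and 1 of 4 precursor markers (Gpr17) lower. These counts stand against the same shares over all genes. The part of these shifts in the Cd1d1, H2-T23 and H2-D1 values was not tested.

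B2m, the light chain that both CD1d and the class I heavy chains need, was at 31.9, 13.0 and 7.30 CPM in kainate neurons and at 43.6, 6.92 and 7.35 CPM in sham neurons. Replicate 1 was the highest library in both groups and the groups overlapped throughout (log2 fold change -0.14, SE 0.96, FDR 1; with the block 0.14, SE 0.22, FDR 1.00). The fold change turned to 1.28 when sham neurons replicate 1 was left out, still with an FDR of 1.
The transporter subunits had slightly lower means after kainate, without a call. Tap1 was at 8.18, 3.26 and 5.45 CPM against 8.19, 7.26 and 5.25 CPM (log2 fold change -0.30, SE 0.47, FDR 1). Its ratios within pairs were 0.999, 0.449 and 1.04, so the lower mean of Tap1 rests on replicate 2. Tap2 was at 6.33, 5.81 and 6.35 CPM against 7.18, 9.22 and 6.96 CPM, and every kainate library lay below every sham library (log2 fold change -0.34, SE 0.43, FDR 1).
Tapbp, which encodes tapasin, was at 54.1, 34.4 and 25.6 CPM against 60.4, 29.2 and 28.3 CPM, which overlapped. Nlrc5 was at 2.85, 6.93 and 11.3 CPM against 3.29, 10.0 and 7.87 CPM, which also overlapped, with a log2 fold change of -0.0072 (SE 0.51, FDR 1). Neither Tapbp nor Nlrc5 was called in neurons with the block, where both FDRs were 1.00.

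**Figure D2:**
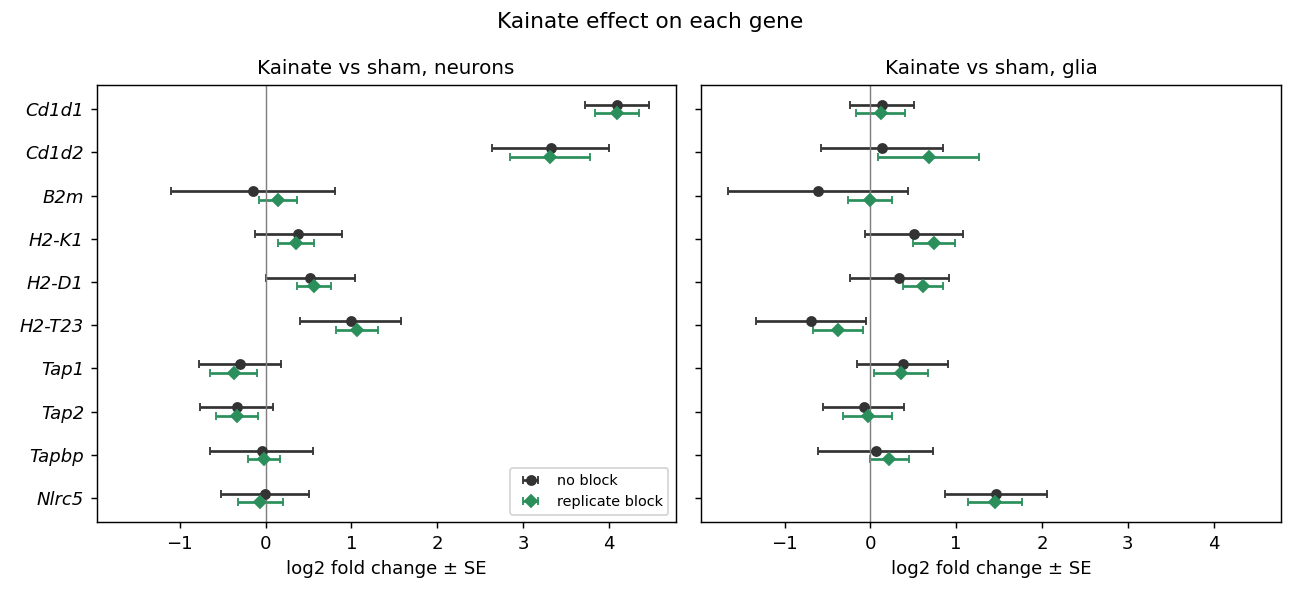
Fitted log2 fold change of kainate against sham for each of the 10 genes in neurons (left) and glia (right); bars are SEs, circles the fit without and diamonds the fit with the replicate block. Cd1d1 (4.10) and Cd1d2 (3.32) stand apart in neurons, and Nlrc5 (1.47) is the highest in glia.

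In glia, 0 of the 10 members were called at FDR below 0.25 without the block, against 0.101% of all genes, and DESeq2's Wald test also called 0. Of the 10, 1 (Nlrc5) had an unadjusted p under 0.05, as did 2.05% of all genes. With the block, Nlrc5, H2-K1 and H2-D1 were upregulated in kainate glia, 3 of 10 with 2.93% of all genes called higher. In that fit kainate glia replicate 2 has no sham partner and so adds nothing to the kainate effect, which rests on the pairs of replicates 1 and 3. The sham library of pair 1 had low RNA input and its kainate partner did not, so treatment and input cannot be told apart in that pair. The same limit holds for every other glia value from this fit and for the differences built on them. In the same fit glial markers were lower after kainate: 4 of 4 for oligodendrocyte precursors (median log2 fold change -1.36), 4 of 6 for oligodendrocytes (-0.76), 4 of 7 for astrocytes (-1.12, with Gfap higher) and 3 of 10 for microglia (-0.46) were called lower, against 2.86% of all genes; without the block none was called. With the block, 2 of 9 neuron markers were also called higher in kainate glia (Gad1 and Tubb3) and 1 lower (Camk2a), and 1 of 5 pericyte markers (Vtn) was called lower. The part of these shifts in the class I values was not tested. The median log2 fold change of the 8 class I genes was 0.29 with the block and 0.20 without it, against 0.11 and 0.023 over all genes.

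Nlrc5, the activator of class I promoters, was at 28.8, 37.3 and 32.9 CPM in kainate glia and at 7.60 and 16.3 CPM in sham glia. It was the only member whose kainate and sham glia libraries did not overlap, which held for 8.22% of all genes, and it was higher by 3.79 times in pair 1 and by 2.02 times in pair 3. The log2 fold change was 1.47 (SE 0.60; FDR 1.00) without the block and 1.45 (SE 0.31; FDR 0.00205) with it. Without the block, leaving out sham glia replicate 3 gave Nlrc5 a log2 fold change of 2.11 (FDR 0.246), but sham glia is then the low-input replicate 1 library alone (119 counts of Nlrc5), which is assumed to vary like the other groups.
H2-K1 was at 212, 84.3 and 64.8 CPM in kainate glia and at 131 and 37.5 CPM in sham glia. The groups overlapped because replicate 1 was high in both, and within pairs kainate was higher by 1.61 and 1.73 times (log2 fold change 0.51, SE 0.57, FDR 1.00; with the block 0.74, SE 0.24, FDR 0.102).
H2-D1 behaved alike in level, at 210, 80.3 and 67.7 CPM against 148 and 41.2 CPM, with ratios of 1.42 and 1.64 within pairs (log2 fold change 0.34, SE 0.58, FDR 1.00; with the block 0.61, SE 0.23, FDR 0.217).
H2-T23 was at 36.6, 10.6 and 10.6 CPM in kainate glia and at 48.5 and 13.5 CPM in sham glia. It was lower after kainate in both pairs, at 0.755 and 0.788 times, without a call (log2 fold change -0.69, SE 0.64, FDR 1.00; with the block -0.38, SE 0.29, FDR 0.84).
B2m was at 147, 27.1 and 20.1 CPM against 181 and 16.3 CPM, Tap1 at 30.3, 20.1 and 11.4 CPM against 22.2 and 9.47 CPM, Tap2 at 40.8, 20.97 and 14.0 CPM against 37.1 and 16.2 CPM, and Tapbp at 185, 88.0 and 43.6 CPM against 167 and 35.6 CPM. For all 4 of these genes the groups overlapped, replicate 1 was the highest library of each group, and the FDR was at or above 0.88 with and without the block.
Across the 8 class I genes, replicate 1 was the highest library for 7 in kainate glia and for 7 in sham glia (all but Nlrc5), at a median of 2.83 and 3.55 times the mean of the other libraries of the group. The microglial, astrocyte, oligodendrocyte, oligodendrocyte precursor, pericyte and infiltrating myeloid sums were also highest in replicate 1 in both groups, whereas the endothelial and B cell sums were lowest there. The microglial sum was 2189 CPM in kainate glia replicate 1 and 711 CPM in the lowest library of that group, and 3729 and 686 CPM in sham glia replicates 1 and 3. The part of these cells in the spread of the class I genes was not tested.

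The kainate effect was then compared between neurons and glia. Without the block, 0 of the 8 class I genes were called, against 0.00246% of all genes. None of the 8 had an unadjusted p under 0.05 (0.909% of all genes did), and DESeq2's Wald test called 0. With the block within cell type, H2-T23 and Nlrc5 were called, 2 of 8 against 1.94% of all genes. The effect on H2-T23 was higher in neurons by 1.44 on the log2 scale (SE 0.38, FDR 0.0519; 1.68, SE 0.87, FDR 1.00 without the block). The effect on Nlrc5 was lower in neurons, at -1.51 (SE 0.41, FDR 0.0548; -1.47, SE 0.78, FDR 1.00 without the block). With the pool of mice as the block, which joins the neuron and glia libraries sorted from the same pool, neither was called (H2-T23 1.65, Nlrc5 -1.28, both FDR 1), against 0.0221% of all genes. Without the block, the H2-T23 difference was 0.45 without sham glia replicate 1 and 2.66 without kainate glia replicate 1, and it was 0.16 without both low-input libraries.

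Over both treatments, the class I genes were expressed less in neurons than in glia. All 8 were lower in neurons at FDR below 0.25, with 20.4% of all genes called lower, and the log2 fold changes ran from -3.45 to -1.18 with a median of -1.56 against -0.47 over all genes. With the pool of mice as the block all 8 were again called lower, with 34.8% of all genes called lower.
H2-K1 showed the widest gap, at 6.24 to 12.2 CPM over the 6 neuron libraries and 37.5 to 212 CPM over the 5 glia libraries (log2 fold change -3.45, SE 0.40, FDR 4.71e-05). The fractions did not overlap for H2-K1, Tap1 (3.26 to 8.19 CPM against 9.47 to 30.3 CPM) and Tap2 (5.81 to 9.22 CPM against 14.0 to 40.8 CPM), 3 of 8, which held in this direction for 6.31% of all genes.
The remaining log2 fold changes were -2.13 for B2m (SE 0.73, FDR 0.0607), -1.58 for H2-D1 (SE 0.39, FDR 0.01), -1.54 for Tap1, -1.90 for Tap2, -1.49 for Nlrc5, -1.42 for Tapbp (SE 0.45, FDR 0.0429) and -1.18 for H2-T23 (SE 0.44, FDR 0.0828). B2m and H2-T23 lost the call without sham glia replicate 1 (log2 fold change -0.81, FDR 0.349, and -0.56, FDR 0.318), and B2m, H2-T23 and Tapbp lost it without both low-input libraries. B2m also lost it with low RNA input as a covariate (-1.75, FDR 0.267). Without sham glia replicate 1 the log2 fold changes of H2-K1, H2-D1 and Tapbp shrank to -2.84, -0.96 and -0.64 and were still called. B2m ran further from -1.48 without kainate glia replicate 1 to -2.84 without sham neuron replicate 1, both called. Within pools, H2-T23 in neurons was at 0.252 and 0.344 times its glia level after sham (replicates 1 and 3). After kainate it was at 0.509, 1.00 and 1.53 times (replicates 1, 2 and 3), so its gap did not hold in every kainate pool.
Cd1d1 and Cd1d2 pointed the other way over both treatments (0.65 with SE 0.25, and 0.65 with SE 0.48), a description that holds the kainate neuron values; in sham libraries alone Cd1d1 was at 3.47 to 4.70 CPM in neurons and at 8.48 and 12.7 CPM in glia.

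**Figure D3:**
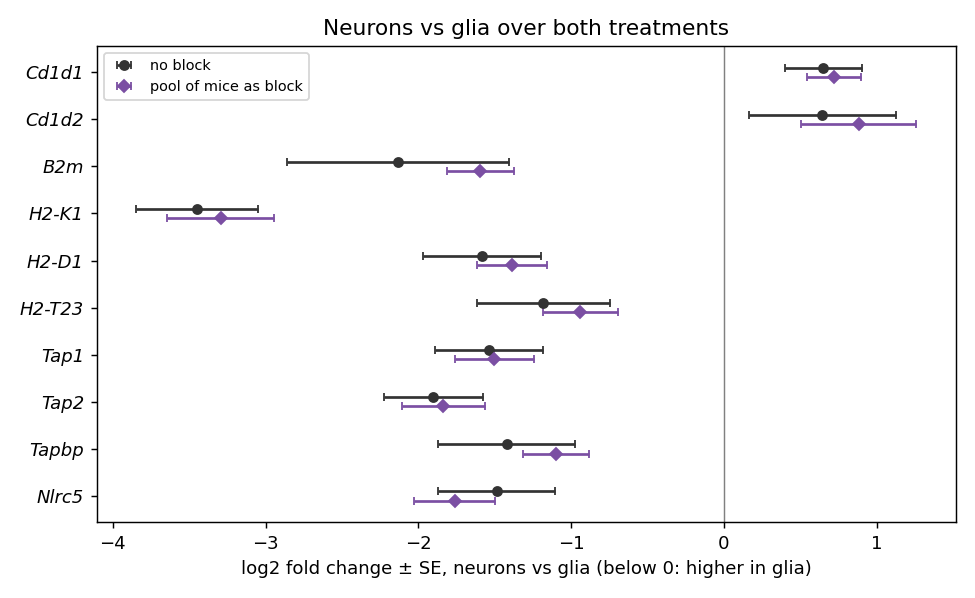
Fitted log2 fold change of neurons against glia over both treatments for each of the 10 genes, with SEs; circles are the fit without a block and diamonds the fit with the pool of mice as block. All 8 class I genes lie below 0, from -3.45 for H2-K1 to -1.18 for H2-T23 without a block, and Cd1d1 and Cd1d2 lie above 0 at 0.65.

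Levels per kilobase of exon place the members beside each other within a group. In sham neurons B2m was at 22.4 ± 24.5 CPM per kb (SD, n = 3), H2-D1 at 11.5 ± 3.98, Tapbp at 10.8 ± 5.04, H2-K1 at 2.74 ± 0.562, H2-T23 at 2.65 ± 1.39, Tap2 at 2.06 ± 0.329, Cd1d1 at 1.64 ± 0.252, Tap1 at 1.26 ± 0.274, Nlrc5 at 0.832 ± 0.406 and Cd1d2 at 0.382 ± 0.127. The libraries of neighbours in this order overlapped, apart from those of Tapbp and H2-K1 and, by a narrow gap, those of Tap2 and Cd1d1.
In kainate neurons Cd1d1 stood first at 28.0 ± 6.98 CPM per kb, followed by B2m at 20.2 ± 15.0 and H2-D1 at 16.5 ± 2.64, and the Cd1d1 and B2m libraries overlapped. In kainate glia Cd1d1 was at 4.51 ± 0.695 CPM per kb, in position 7 of the 10, under B2m (75.3 ± 83.0), H2-D1 (46.3 ± 30.6), H2-K1 (41.0 ± 27.2), Tapbp (29.1 ± 20.004), Tap2 (6.68 ± 3.67) and H2-T23 (6.67 ± 5.20), and its libraries overlapped those of Tap2 and H2-T23.

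Counts of some class I members share sequence with other genes. Of the windows of 75 bases, 3.10% in H2-K1, 5.56% in H2-D1 and 5.91% in H2-T23 transcripts also occurred in other genes, mostly other class I genes, while none did in B2m. Tapbp and Tap2 overlap genes on the other strand over 29.0% and 18.5% of their exons (for Tapbp in part a gene on the same strand), and the library kit did not keep the strand, so these values are less certain.

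The genes around the members were counted in 7 lists of 85 further genes. Without the block, 0 of the 85 were called in neurons and 0 in glia by edgeR, against 0.165% and 0.101% of all genes, and 2 of 85 had an unadjusted p under 0.05 in each, against 2.09% and 2.05%. The median log2 fold change was 0.037 in neurons and -0.056 in glia. With the block, 6 were upregulated and 1 downregulated in neurons, where 3.19% and 1.9% of all genes were, and 6 were upregulated and 3 downregulated in glia, where 2.93% and 2.86% were. All values that follow are log2 fold changes and FDRs with the block, which leaves few residual degrees of freedom. In glia they rest on 2 pairs, 1 of them with a low-input sham library.
Among 17 genes of class I transcription, 2 were upregulated in neurons: Irf7, an interferon-induced regulator (1.02, FDR 0.102), and Nfyb, a subunit of the factor that binds CCAAT boxes (0.57, FDR 0.164). The Irf7 ratio in neurons was 4.17 in pair 1, whose sham library held 15 counts of it, and 1.37 and 1.85 in pairs 2 and 3. In glia 4 were upregulated, namely Irf7 (1.04, FDR 0.231), Irf1 (0.98, FDR 0.0456), the NF-kappa B subunit Rela (0.77, FDR 0.0503) and the interferon signalling factor Stat2 (0.65, FDR 0.14), and Rfx5, which binds the X box of class I and class II promoters, was downregulated (-0.74, FDR 0.2). The Irf7 call in glia rests on pair 1, in which kainate was higher by 4.34 times and whose sham library is a low-input one with 62 counts of Irf7; in pair 3 the ratio was 1.04.
Among 9 interferon ligands and receptors (their kinases included), Tyk2 was downregulated in neurons (-0.59, FDR 0.0716) and none was called in glia. Among 12 genes of peptide generation and loading, none was called in neurons and Psme3, a proteasome activator subunit, was upregulated in glia (0.60, FDR 0.189). Of 16 other class Ib and class I-like genes, Mr1, which shows vitamin B metabolites to MAIT cells, was upregulated in neurons (1.03, FDR 0.187) and none was called in glia. Mr1 had 6 counts in sham neurons replicate 1.
Among 14 genes of CD1d lipid loading and trafficking, the lysosomal galactosidase Gla was upregulated in neurons (0.88, FDR 0.0298), while the lipid transfer proteins Gm2a (-1.19, FDR 0.000333) and Npc1 (-0.55, FDR 0.243) were downregulated in glia. Both were lower in neurons than in glia (-2.34 and -1.81 without the block), and the glial markers fell in the same fit as given above, whose part in these values was not tested. Among 9 class II genes, H2-Ab1 was upregulated in neurons (1.44, FDR 0.0206), at 2.99, 3.03 and 4.73 CPM in kainate and 0.47 (7 counts), 1.78 and 1.84 CPM in sham neurons, and none was called in glia.
The list of 9 receptors of class I and CD1d also holds Lilrb4a, an inhibitory receptor of myeloid cells that is not an established receptor of either and was the only gene of the list called for kainate against sham. It was upregulated in glia, at 55.4, 57.0 and 69.9 CPM in kainate and 10.7 and 4.71 CPM in sham glia (3.12, FDR 2.78e-08), and in neurons, at 1.92, 1.22 and 3.78 CPM against 0.134 (2 counts), 1.21 and 0.741 CPM (1.54, FDR 0.00837), where the libraries of pair 2 were level. In neurons, Lilrb4a and H2-Ab1 were higher in the same group as the microglial sum, which overlaps between the groups without Csf1r as given above. With the block C1qb, C1qc and Csf1r were called higher there and P2ry12 lower. The part of microglia in these values was not tested.
Between the fractions, without the block, with 20.4% of all genes called lower and 16.8% higher, 10 of the 16 other class I-like genes were lower in neurons and 1 was higher, H2-T24 (0.60, SE 0.24, FDR 0.116), named here after its value was seen. Of the 12 genes of peptide generation and loading, 4 were lower, likewise named after their values were seen: the immunoproteasome subunits Psmb9 (-2.24) and Psmb8 (-1.73), the trimming peptidase Erap1 (-1.71) and Tapbpl (-0.53). Psme3 was higher in neurons (0.96, FDR 0.0362). In the other 5 lists, 5 of 17 genes of class I transcription were lower and 3 higher, 3 of 9 interferon ligands and receptors lower and 3 higher, 7 of 14 genes of lipid loading and trafficking lower and 2 higher, 7 of 9 class II genes lower and 5 of 9 receptors lower, with none higher in the last pair.

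The defining T cell genes Cd3d, Cd3e, Cd3g and Trac, named here as a check and outside the rule for named genes, were between 0.0574 and 6.10 CPM in every library. A list of 13 T, NKT and NK cell markers summed to 151 to 217 CPM in kainate neurons, 212 to 278 CPM in sham neurons, 114 to 136 CPM in kainate glia and 95.9 to 114 CPM in sham glia, with no marker at 0 in all libraries of a group. Zbtb16, a transcription factor of NKT cells named after its value was seen, made up most of this sum, at 137 to 265 CPM in neurons and 83.9 to 127 CPM in glia. The other 12 markers summed to 4.70 to 13.3 CPM in neurons and 6.33 to 31.3 CPM in glia. The higher sum in neurons thus rests on Zbtb16. Between the fractions, without the block, it was the only 1 of the 13 called higher in neurons, and 5 (Cd4, Klrb1c, Nkg7, Cd3g and Gzmb) were called lower. The shares over all genes were 16.8% and 20.4%, and the median log2 fold change of the list was -1.10. Which cells the Zbtb16 counts came from was not tested. The 7 markers of infiltrating myeloid cells summed to at most 13.2 CPM in neurons and 56.2 CPM in glia, with S100a8 at 0 in all kainate neuron libraries.

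The genes whose log2 CPM over the 11 libraries were most like Cd1d1 were Megf11 (Pearson r 0.951), Gpr153 (0.947), Lhfp (0.927), Syndig1l (0.916) and, in position 5 of 40713 genes, Cd1d2 (0.911). For each of these 5 genes the 3 kainate neuron libraries were the highest 3 of the 11. All points share their libraries and scaling, and the values are given with no test. Megf11, a receptor with EGF-like domains, was at 147 to 210 CPM in kainate neurons and 34.2 to 44.0 CPM in sham neurons, and Syndig1l at 13.1 to 20.9 CPM and 3.38 to 4.54 CPM. Gpr153, an orphan G protein-coupled receptor, was at 29.6 to 50.3 CPM against 9.54 to 14.5 CPM, and Lhfp at 39.2 to 55.9 CPM against 9.10 to 14.4 CPM.
None of the class I members was near the top of this ranking. H2-T23 came first among them at r 0.293 (position 3875), followed by H2-D1 at 0.064, and the other 6 had negative values down to -0.327 for Tap1.

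**Figure D4:**
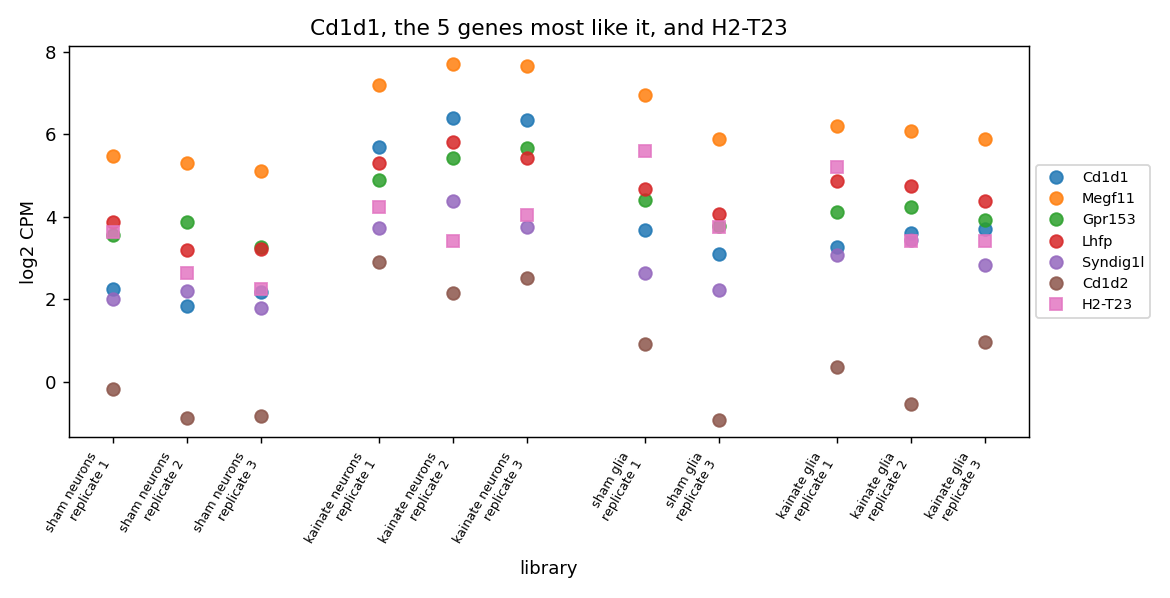
Log2 CPM of Cd1d1, of the 5 genes with the highest correlation to it and of H2-T23 (squares) in each of the 11 libraries, by group. The 6 most alike genes all stand higher in the kainate neuron libraries than in the sham neuron libraries, whereas H2-T23 (r 0.293) is highest in the replicate 1 glia libraries.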

How the data were processed

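The deposited RNA values are raw counts per gene, which the authors made with Trim Galore 0.4.3, Rsubread and featureCounts from uniquely mapped reads (mm10, GENCODE M16 genes), without UMIs. Read lengths were 75 or 150 bases, not assigned to libraries in the sources used here. Gene names, exon lengths and Cd1d exons came from GENCODE M21. The 11 bisulfite samples were not used here. Counts were fitted with edgeR 4.0.16 in R 4.3.3 (TMM, filterByExpr, quasi-likelihood, 4 group means, FDR below 0.25 over 40714 genes) and the fits were tested on simulated counts. Alternatives included DESeq2 1.42.0, other filters, the block, low RNA input and each library left out.

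Kainate and sham libraries of the same number deviated together (r 0.643, 0.161 and 0.491 in neurons, 0.76 and 0.787 in glia), so the numbers were taken to pair them, although no source says what a shared number means. Libraries of unlike number were not correlated for comparison. Glia has only 2 pairs, and with 2 sham libraries their r values are not independent of each other. Replicates are pools of mice. CPM values use TMM-scaled library sizes, and log2 CPM a prior count of 2. The members and lists were chosen with earlier results of these data known. Named were all members, list genes called with or without the block in neurons or glia, the 5 genes most like Cd1d1, Rbfox3 and Cx3cr1 as sort checks, and marker lists as sums with the markers at 0. Other single markers, and genes so marked, were named after their values were seen.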

Additional observations from a re-analysis of the deposited data

Results flagged for a closer look

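The kainate effect on H2-T23 and on Nlrc5 differed between neurons and glia in the test of the difference itself with the replicate block. For H2-T23 the effect was higher in neurons by 1.44 on the log2 scale (FDR 0.0519), and for Nlrc5 the difference was -1.51 (FDR 0.0548). Neither was called without the block or with the pool of mice as block. With 1 library left out and no block, the differences ran from 0.45 to 2.66 for H2-T23 and from -2.11 to -1.05 for Nlrc5, and without both low-input libraries they were 0.16 and -0.95. Groups held 2 or 3 libraries, too few to look for single outlying samples.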

How the results depend on the processing

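Of the 24 other settings, the counts of called members moved by over 1.5 times under 3. The replicate block within cell type called 2 of 8 class I genes in neurons, 3 of 10 members in glia and 2 of 8 in the difference, and it changed no other call of a member that was tested (Cd1d2 is described without a test in neurons, in the difference and between the fractions). Leaving out 1 library at a time called 0 in neurons, 0 to 1 in glia (Nlrc5, without sham glia replicate 3), 0 in the difference and 6 to 8 between the fractions. Leaving out either sham glia library leaves that group with 1 library, assumed to vary like the other groups. Leaving out both low-input libraries gave 5 between the fractions, and low input as a covariate gave 7 (without B2m). Among uncalled log2 fold changes the sign turned in neurons for B2m with the block (0.14) and for Nlrc5 in a fit of neurons alone (0.0063). In glia it turned for B2m (2.39), H2-T23 (0.83) and Tap2 (0.78) without both low-input libraries, for Tap2 with low input as a covariate (0.054) and for Tapbp with DESeq2 size factors (-0.038) and DESeq2's Wald test (-0.038). Over the settings other than leaving out 1 library, glia values also reached 1.91 for H2-K1 (0.51 in the main fit), 1.78 for H2-D1 (0.34), 1.72 for Tapbp (0.061), 1.79 for Cd1d2 (0.14) and 1.16 for Tap1 (0.38). With 1 library left out, the neuron values ran from -0.92 to 1.28 for B2m, -0.39 to 0.40 for Tapbp and -0.52 to 0.36 for Nlrc5. The glia values ran from -0.14 to 0.48 for Cd1d1, -0.56 to 1.46 for Cd1d2, -2.23 to 2.02 for B2m, -0.32 to 1.71 for H2-K1, -0.49 to 1.56 for H2-D1, -1.69 to 0.54 for H2-T23, -0.12 to 1.15 for Tap1, -0.72 to 0.67 for Tap2 and -0.76 to 1.60 for Tapbp. The cause was not tested. Of 688 single-gene values, 636 kept their direction and side of the threshold. Cd1d1 in neurons stayed between 3.98 and 4.29.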
